A study of Mus musculus with 3 samples.

Results

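The genes described here encode the MHC class I antigen presentation machinery and a family of small interferon-induced membrane proteins: H2-K1, H2-D1, B2m, Tap1, Psmb8, Ifitm1, Ifitm2 and Ifitm3. They are 8 of the 53465 genes listed, taken by symbol. H2-K1 and Ifitm1 were chosen by their measured levels, which differed between ages in granulosa cells, so those differences are a description only. The mRNA of single cells was sequenced from whole ovaries of C57BL/6 females, with 1 library at each age: embryonic day 16.5 (the title of that library gives day 17), postnatal day 7 (PND7) and postnatal day 14 (PND14). No treatment or altered allele is named. The tissue was dissociated with collagenase and passed through a fine mesh before droplet capture, and whether several animals were pooled is not given in the sources used here. Since each age is 1 library, differences between ages rest on no replicates and no test was made. Every interval is an exact 95% interval that covers counting error only.

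MHC class I molecules carry peptides from inside the cell to its surface, where T cells and natural killer cells inspect them. A polymorphic heavy chain (H2-K1 or H2-D1) pairs with the invariant light chain β2-microglobulin (B2m). The peptides are cut by the proteasome, in which Psmb8 can replace a constitutive subunit, and are pumped into the endoplasmic reticulum by a transporter of which Tap1 is a part. Interferons can induce all of these genes. The IFITM proteins sit in cell membranes and hinder the fusion of enveloped viruses with the cell. In mice Ifitm3 (fragilis) and Ifitm1 are also known from early germ cells.

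The 3 tables held 459, 510 and 585 cell barcodes and 8994085, 8743797 and 9065595 UMIs (unique molecular identifiers, 1 per mRNA molecule caught), in the order of age used throughout. No barcode was shared between libraries, and 456, 509 and 583 cells were kept. Clusters of cells were named from marker genes as granulosa-like, stroma-like and so on. Levels are UMIs summed over the cells of a class and scaled to a total of 1000000 (CPM); the granulosa-like sums were 1832906, 1972317 and 1615050 UMIs, so 1 UMI is worth about the same at each age. Fewer cells with an mRNA and less mRNA per cell are not separated by such a sum. Granulosa cells, the somatic cells that enclose the oocyte, numbered 88, 89 and 94, and 19, 20 and 20 of their 20 markers were detected (Fshr was at 0 in the embryo). Detection alone does not set the class apart, since stroma-like cells held UMIs of 15, 19 and 18 of these markers. In the main granulosa-like cluster of each age, 7, 14 and 16 of them were 2-fold above the other cells, so the embryonic name rests on fewer markers. Different clusters held most of a class at different ages: cluster 0, 12 and 13 for granulosa-like cells and cluster 3, 15 and 19 for stroma-like cells (104, 206 and 218 cells). Each comparison between ages in these classes is thus also one between clusters. Endothelium-like cells (19, 21 and 28) came from cluster 4 at every age. Germ-cell-like cells numbered 67, 12 and 3, and immune-like cells 33, 19 and 9. Fewer than 15 cells at an age were taken as too few for a comparison. The clusters were made without the 8 genes.

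Of the 8 genes, 4 lie on chromosome 17 in GENCODE M21 (GRCm38): H2-K1 (33996017–34000347, minus strand), Tap1 (34187553–34197225, plus), Psmb8 (34197721–34201454, plus) and H2-D1 (35262730–35267499, plus). B2m lies on chromosome 2 (122147686–122153083, plus). Ifitm1 (140967221–140969825, plus), Ifitm2 (140954837–140955987, minus) and Ifitm3 (141009586–141010770, minus) neighbour each other on chromosome 7. All 8 are annotated as protein coding. Another gene overlaps 4 of them: B2m overlaps Patl2, Tap1 overlaps Psmb9 and Psmb8 overlaps the antisense Gm20496, each on the opposite strand, while Ifitm2 overlaps Gm45717 on its own strand. Class I heavy chains and IFITM genes have close relatives, so reads could be split between copies. Of the 303 windows of 98 bases (the read length) in the last 400 bases of each gene's longest coding transcript, none of H2-K1, H2-D1, B2m, Tap1, Psmb8, Ifitm1 or Ifitm3 occurred exactly in a transcript of another gene, and 27 of Ifitm2 (8.91%) also occurred in Gm8865.

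The promoters of 5 genes are shown because H2-K1, H2-D1 and B2m shared a pattern over the ages in granulosa-like cells while Ifitm1 and its neighbour Ifitm3 did not. They are from RefSeq (GRCm38.p6), 5′ to 3′ on the gene's strand, 250 bases before to 50 after the annotated start. H2-K1 is chr17:34000298-34000597 (minus), H2-D1 chr17:35262844-35263143 (plus), B2m chr2:122147437-122147736 (plus), Ifitm1 chr7:140967826-140968125 (plus) and Ifitm3 chr7:141010695-141010994 (minus). Capitals mark exact matches, on either strand, to 4 motifs: an interferon regulatory factor core (AANNGAAA), an interferon-γ activated site (TTCNNNGAA), the NF-κB site of class I genes (GGGGATTCC) and the CCAAT box (CCAAT).
H2-K1: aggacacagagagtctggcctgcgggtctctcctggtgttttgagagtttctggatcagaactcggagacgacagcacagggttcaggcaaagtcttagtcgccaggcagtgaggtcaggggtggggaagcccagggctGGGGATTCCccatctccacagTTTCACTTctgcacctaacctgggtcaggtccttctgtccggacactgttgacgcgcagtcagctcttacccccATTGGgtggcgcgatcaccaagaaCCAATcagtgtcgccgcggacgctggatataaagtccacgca
H2-D1: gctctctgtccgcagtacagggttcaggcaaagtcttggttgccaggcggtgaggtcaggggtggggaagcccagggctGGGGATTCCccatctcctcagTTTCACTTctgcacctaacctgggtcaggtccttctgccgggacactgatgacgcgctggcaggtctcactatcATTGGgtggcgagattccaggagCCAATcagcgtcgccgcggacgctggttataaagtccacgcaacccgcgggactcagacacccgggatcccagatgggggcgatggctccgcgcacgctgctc
B2m: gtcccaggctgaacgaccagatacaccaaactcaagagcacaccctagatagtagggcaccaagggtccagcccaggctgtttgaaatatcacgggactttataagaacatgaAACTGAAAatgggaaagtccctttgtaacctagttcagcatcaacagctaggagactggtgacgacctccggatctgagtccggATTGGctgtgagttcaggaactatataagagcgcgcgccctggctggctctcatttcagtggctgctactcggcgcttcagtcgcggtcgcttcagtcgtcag
Ifitm1: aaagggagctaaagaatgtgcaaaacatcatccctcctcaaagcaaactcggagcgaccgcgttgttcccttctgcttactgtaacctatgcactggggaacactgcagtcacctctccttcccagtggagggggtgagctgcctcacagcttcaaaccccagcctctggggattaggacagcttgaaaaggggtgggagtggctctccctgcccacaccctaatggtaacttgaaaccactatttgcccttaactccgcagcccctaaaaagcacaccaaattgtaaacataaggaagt
Ifitm3: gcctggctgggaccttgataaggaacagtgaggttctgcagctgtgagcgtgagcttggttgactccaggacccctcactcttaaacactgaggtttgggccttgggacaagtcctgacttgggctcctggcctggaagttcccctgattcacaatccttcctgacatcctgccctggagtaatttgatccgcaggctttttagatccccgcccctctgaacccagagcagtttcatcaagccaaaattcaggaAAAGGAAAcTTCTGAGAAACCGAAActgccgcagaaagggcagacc

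Both heavy chain promoters held the NF-κB motif, at bases 140 to 148 of H2-K1 and 80 to 88 of H2-D1, followed by an interferon regulatory factor core and 2 CCAAT boxes. This NF-κB motif was present in 80 of 27025 genes with a listed promoter (0.296%). Aligned on it without gaps, the heavy chain promoters matched at 176 of 240 bases (73.3%). The B2m promoter held 1 interferon regulatory factor core and 1 CCAAT box, motifs that 26.7% and 41.1% of all genes hold. The Ifitm3 sequence held 2 interferon regulatory factor cores and a palindromic interferon-γ activated site between them (9.55% of all genes hold one), and the site overlaps the last of these cores by 1 base. The Ifitm1 window held none of the 4 motifs, while Ifitm2 held 1 interferon regulatory factor core and 1 CCAAT box. Tap1 held a CCAAT box and Psmb8 an interferon-γ activated site. The RefSeq starts of H2-D1, Psmb8 and Ifitm1 lie 364, 474 and 855 bases inside the genes as GENCODE places them, so bases before those GENCODE starts were not searched. These matches describe the letters in these windows and are not measured binding.

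The heavy chains H2-K1 and H2-D1 had almost the same level in granulosa-like cells at each age, with the highest level at PND7. H2-K1 stood at 24.6 CPM (interval 17.9–32.9; 45 UMIs), 182 CPM (163–201; 358 UMIs) and 44.0 CPM (34.3–55.5; 71 UMIs). H2-D1 stood at 20.2 CPM (14.2–27.8; 37 UMIs), 183 CPM (165–203; 361 UMIs) and 45.2 CPM (35.4–56.8; 73 UMIs). Postnatal day 7 was thus the high library and the embryo the low one for both genes, with no overlap of the intervals. H2-K1 was 7.39-fold higher at PND7 than in the embryo (5.41–10.3) and 4.13-fold lower at PND14 than at PND7 (3.19–5.40). H2-D1 was 9.07-fold higher (6.45–13.1) and then 4.05-fold lower (3.14–5.28). At PND14 both were still above the embryo, by 1.79-fold (1.22–2.66) for H2-K1 and 2.24-fold (1.49–3.42) for H2-D1. H2-K1 made 54.9%, 49.8% and 49.3% of the summed heavy chain UMIs at the 3 ages, with overlapping intervals.

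Most heavy chain UMIs of the embryonic granulosa-like cells came from cells that also held germ cell RNA. Of the 45 H2-K1 UMIs, 22 lay in 3 cells. The 30 cells with a UMI of Ooep, Zp3, Dppa3, Ddx4 or Stra8 held 34 of them (40.4 CPM; 28.0 to 56.5), and the 58 cells without one held 11 (11.1 CPM; 5.53 to 19.8). The cells with such a UMI were deeper, with a median of 26502.5 UMIs against 14159. For H2-D1 the same cells stood at 34.5 CPM (23.1–49.5) and 8.06 CPM (3.48–15.9), while B2m differed little, at 88.0 CPM (69.1–110) and 79.6 CPM (63.0–99.2). Of the 15 germ cell markers 10, 12 and 5 were detected in granulosa-like cells at the 3 ages, and they summed to 290, 37.0 and 6.81 CPM. In the embryo Zp1, Zp2, Zp3, Nobox and Oosp1 were at 0, and the sum was 6.30% of that in germ-cell-like cells. H2-K1 in embryonic granulosa-like cells was at 6.18% of its germ-cell-like level and H2-D1 at 6.98%, against 299% for B2m. At PND7 the heavy chains were high on both sides of this split, with H2-K1 at 211 and 155 CPM and H2-D1 at 157 and 206 CPM with and without a germ cell UMI. Erythroid markers summed to 7893, 486 and 480 CPM in granulosa-like cells. The part of germ cell or erythroid RNA in these levels was not tested. Without cells that held such a UMI, a choice made after seeing the data, the log2 ratio of (CPM + 10) between PND7 and the embryo was 2.97 for H2-K1 and 3.58 for H2-D1, against 2.47 and 2.68 in all cells, and that of H2-K1 between PND14 and the embryo was 1.26 against 0.64. A gate that took cells one by one, by their own markers, gave 3.47 and 1.499 for H2-K1 in these comparisons from 33 embryonic cells.

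**Figure D1:**
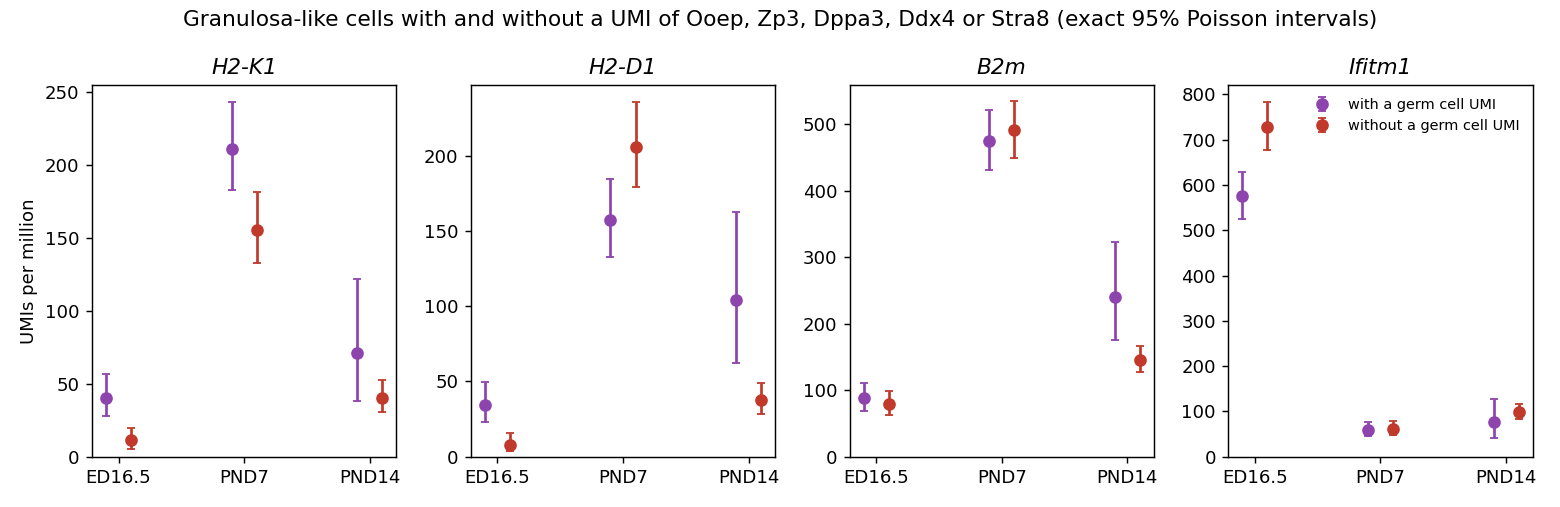
Levels (CPM, vertical axis) of 4 genes in granulosa-like cells at each age (horizontal axis), split into cells with (purple) and without (red) a UMI of 5 germ cell genes; bars are exact 95% Poisson intervals. In the embryo H2-K1 stood at 40.4 CPM with and 11.1 CPM without such a UMI, while B2m stood at 88.0 and 79.6 CPM.

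Shares of cells gave the same order as the levels. After thinning every cell to 5000 UMIs, 6.82%, 51.7% and 15.96% of granulosa-like cells held an H2-K1 UMI (intervals 2.54 to 14.3, 40.8 to 62.4 and 9.22 to 25.0), and 9.09%, 50.6% and 18.1% an H2-D1 UMI. Without thinning the H2-K1 shares were 23.9%, 79.8% and 37.2%. Embryonic erythroid-like cells (144 cells, median depth 15792 UMIs against 17074.5 in the embryonic granulosa-like cells) had thinned shares of 4.17% for H2-K1 (1.54–8.85) and 10.4% for H2-D1 (5.95–16.6). They were not used as a background for class I mRNA, since its UMIs lay mostly in cluster 5 of the 3 erythroid-like clusters: 25 of 26 for H2-K1, 62 of 71 for H2-D1 and 160 of 166 for B2m. In clusters 2 and 6 H2-K1 stood at 1.91 CPM (0.0484–10.7) and 0 CPM (0–8.92), and B2m at 1.91 CPM (0.0484–10.7) and 12.1 CPM (3.93–28.2). No class was thus known to lack these mRNAs, and how much of the low embryonic shares was free RNA was not tested.

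B2m, the light chain, followed the heavy chains in granulosa-like cells. It stood at 83.5 CPM (70.8–97.8; 153 UMIs), 483 CPM (453–515; 953 UMIs) and 157 CPM (138–177; 253 UMIs). It was 5.79-fold higher at PND7 than in the embryo (4.88–6.91), 3.08-fold lower at PND14 than at PND7 (2.68–3.56) and 1.88-fold higher at PND14 than in the embryo (1.53–2.31). The 3 intervals do not overlap. Its thinned shares of cells were 27.3% (18.3–37.8), 84.3% and 47 of 94 cells, and unthinned they were 73.9%, 98.9% and 77.7%. The thinned share of embryonic erythroid-like cells was 22.2% (15.7–29.9). That share is not a background, since 160 of the 166 B2m UMIs there lay in cluster 5. Of the 16 immune markers 14, 13 and 12 were detected in granulosa-like cells, at a summed 69.8, 57.8 and 26.0 CPM. Ptprc, the pan-leukocyte marker, was at 0 at both postnatal ages. Without the cells that held a UMI of Ptprc, Tyrobp, Fcer1g or Csf1r the log2 ratio between PND7 and the embryo was 2.72 for H2-K1, 2.77 for H2-D1 and 2.46 for B2m, against 2.47, 2.68 and 2.40 in all cells. Of the 12 endothelial markers 10, 11 and 11 were detected, at a summed 70.9, 28.4 and 212 CPM; Lyve1 was at 0 at all 3 ages and Flt1 in the embryo. Leaving out cells with an immune UMI does not remove free immune RNA from the others. The parts of immune and endothelial RNA in these levels were not tested.

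**Figure D2:**
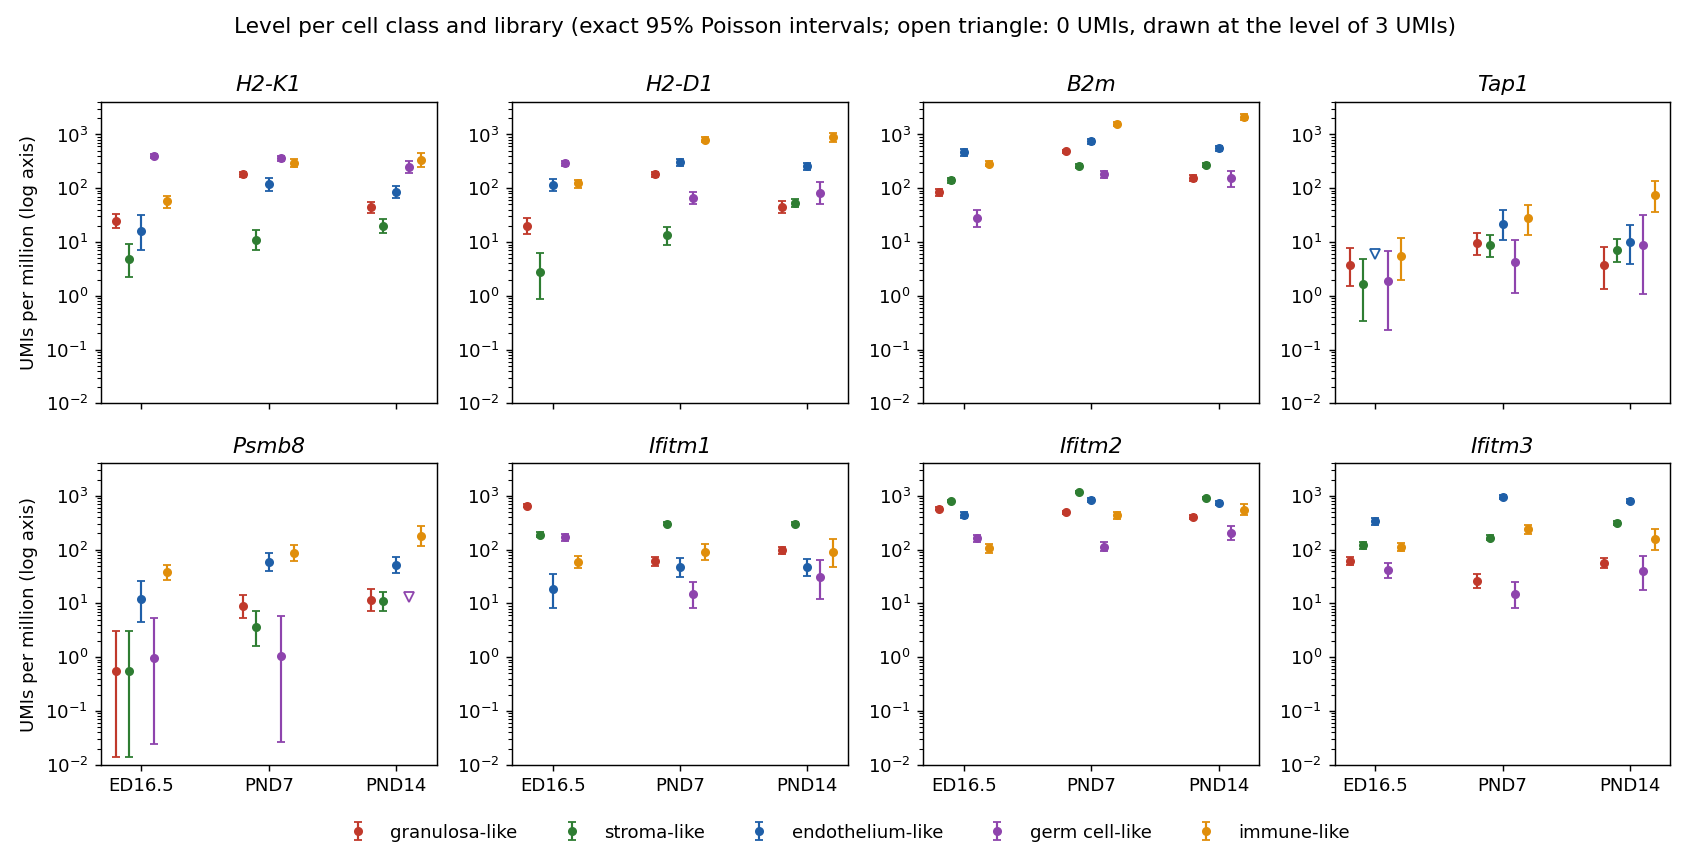
Levels (CPM on a log axis) of the 8 genes by age in granulosa-like, stroma-like, endothelium-like, germ-cell-like and immune-like cells, 1 library per age; bars are exact 95% Poisson intervals and open triangles the level of 3 UMIs where no UMI was found. H2-K1, H2-D1 and B2m of granulosa-like cells are highest at PND7, and Ifitm1 is highest in the embryo, at 659 CPM.

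Cells of the younger cluster within the older library shared part of this pattern. Of the 94 granulosa-like cells at PND14, 9 fell into cluster 12, which held 86 of the 89 cells at PND7 and is led by Amh. In these 9 cells B2m stood at 276 CPM (195–379) and H2-D1 at 131 CPM (77.5–207). In the 85 cells of cluster 13 from the same library, led by Inha and Inhba, they stood at 146 CPM (127–166) and 37.2 CPM (28.0–48.5). H2-K1 stood at 72.7 CPM (34.8–134) and 41.3 CPM (31.6–53.0), where the intervals overlap. Within single cells, H2-K1 and H2-D1 were found together in 31 of 89 cells at PND7 after thinning, against 23.3 if both were independent. The granulosa-like counts were 3 against 0.545 in the embryo and 4 against 2.71 at PND14. In stroma-like cells they were 1 against 0.427 at PND7 and 3 against 4.84 at PND14. Embryonic germ-cell-like cells had 35 against 30.8.

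Tap1 and Psmb8 were near the detection limit in granulosa-like cells. Tap1, a subunit of the peptide transporter, stood at 3.82 CPM (1.54–7.87; 7 UMIs), 9.63 CPM (5.80–15.04; 19 UMIs) and 3.72 CPM (1.36–8.09; 6 UMIs). The interval at PND7 overlaps both others, and its ratio to the embryo was 2.52 (1.02–7.10). Psmb8, a catalytic subunit of the immunoproteasome, had 1, 18 and 19 UMIs, or 0.546 CPM (0.0138–3.04), 9.13 CPM (5.41–14.4) and 11.8 CPM (7.08–18.4). It was higher at both postnatal ages than in the embryo, with a ratio of 16.7 (2.64–697) at PND7 and 21.6 (3.43–896) at PND14, each resting on 1 embryonic UMI. A count of 0 would allow up to 1.64 CPM in the embryonic granulosa-like cells.

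Ifitm1 had the opposite order in granulosa-like cells. It stood at 659 CPM in the embryo (622–697; 1207 UMIs), 60.3 CPM at PND7 (49.98–72.2; 119 UMIs) and 96.6 CPM at PND14 (82.0–113; 156 UMIs). The embryonic level was the highest of Ifitm1 among the 19 combinations of class and library with at least 15 cells. It was 10.9-fold lower at PND7 (9.03–13.3) and 6.82-fold lower at PND14 (5.77–8.11) than in the embryo, and 1.60-fold higher at PND14 than at PND7 (1.25–2.05). The thinned shares of cells were 90.9%, 18.0% and 28.7%, and the unthinned ones 96.6%, 57.3% and 52.1%, against a thinned 4.86% of embryonic erythroid-like cells (1.98–9.76). At PND7, 44 of the 119 UMIs lay in 3 cells. The 3 cells of cluster 13 in that library held 21 UMIs. Embryonic cells without a germ cell UMI stood at 729 CPM (677–784), above those with one at 576 CPM (525–629).

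Its relatives differed less between ages. Ifitm2 stood at 580 CPM (546–616), 490 CPM (459–522) and 407 CPM (376–439) in granulosa-like cells, from 1063, 966 and 657 UMIs, and it was 1.18-fold lower at PND7 (1.08–1.29) and 1.43-fold lower at PND14 (1.29–1.57) than in the embryo. At least 1 Ifitm2 UMI was found in every granulosa-like cell of all 3 libraries before thinning. Ifitm3 stood at 61.7 CPM (50.8–74.1; 113 UMIs), 26.4 CPM (19.7–34.6; 52 UMIs) and 57.0 CPM (45.9–69.9; 92 UMIs), lowest at PND7. It was 2.34-fold lower at PND7 than in the embryo (1.67–3.31), and the intervals of the embryo and PND14 overlap. Of the 13 stroma markers 13, 13 and 12 were detected in granulosa-like cells (Gli1 was at 0 at PND14), at a summed 1368, 509 and 606 CPM, or 25.9%, 4.89% and 6.68% of the level in stroma-like cells. Of the 12 surface epithelium markers 11, 10 and 9 were detected, at 1205, 612 and 329 CPM, with Msln at 0 in the embryo, Lrrn4 and Msln at PND7 and Bnc1, Lrrn4 and Muc16 at PND14. Their part in the Ifitm1, Ifitm2 and Ifitm3 levels was not tested. Of the UMIs of all 3 genes in granulosa-like cells, Ifitm1 made 50.7%, 10.47% and 17.2%, Ifitm2 44.6%, 85.0% and 72.6%, and Ifitm3 4.74%, 4.57% and 10.2%.

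**Figure D3:**
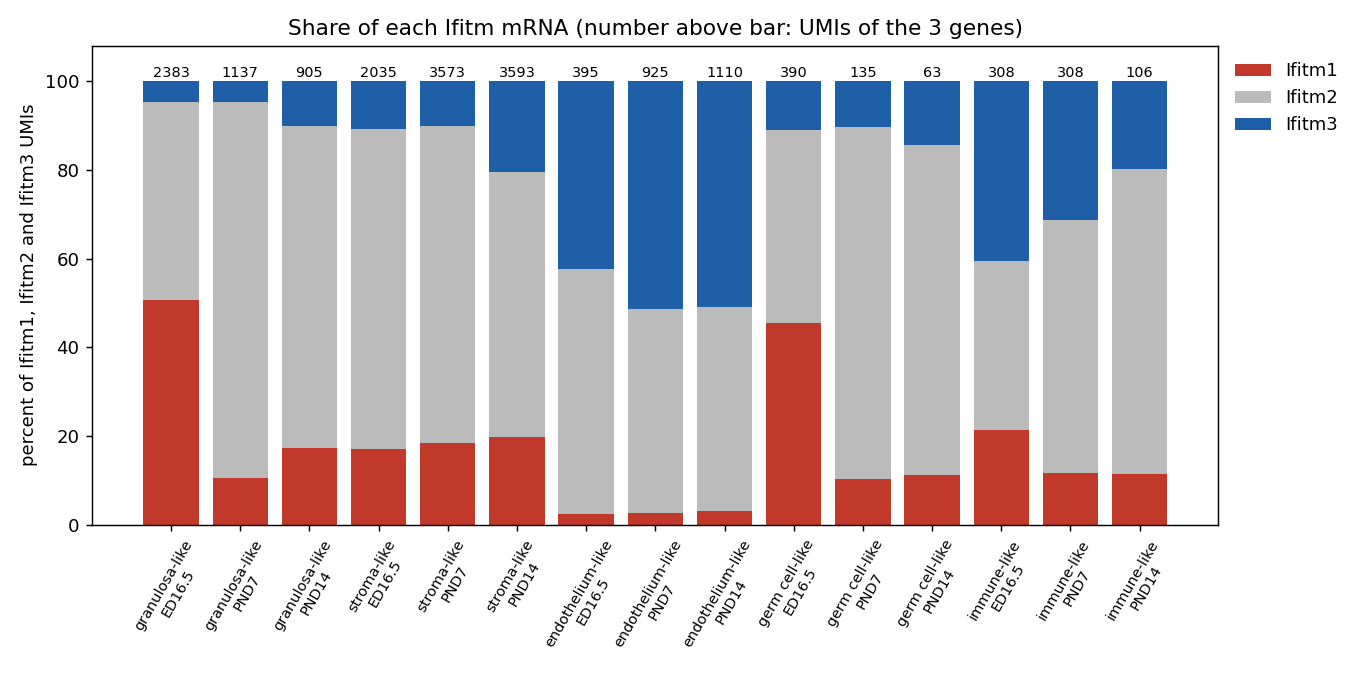
Share of Ifitm1 (red), Ifitm2 (grey) and Ifitm3 (blue) among the UMIs of the 3 genes (percent, vertical axis) in 5 cell classes at each age, with the UMIs counted above each bar. Ifitm1 makes 50.7% in embryonic granulosa-like cells and 45.4% in embryonic germ-cell-like cells, and Ifitm3 makes 42.3% to 51.5% in endothelium-like cells.

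Counted over the 8 genes by the log2 ratio of (CPM + 10), H2-K1, H2-D1 and B2m were at least 2-fold higher and Ifitm1 at least 2-fold lower in granulosa-like cells at PND7 than in the embryo. Among the 13390 genes whose UMIs in the pair of libraries summed to 10 or more, 3.22% were 2-fold higher and 5.00% 2-fold lower. Since H2-K1 and Ifitm1 were picked for differences between ages in granulosa cells, nothing is read from the counts and medians given here. The median log2 ratio of the 8 genes was 0.68, beside -0.12 over all genes. Between PND14 and the embryo, Psmb8 was 2-fold higher (2.76% of 13173 genes) and Ifitm1 2-fold lower (5.99%), with a median of 0.32 beside -0.13. Between PND14 and PND7 none was 2-fold higher (1.14% of 12620 genes) and H2-K1, H2-D1 and B2m were 2-fold lower (1.25%), with a median of -0.39 beside -0.02. All 8 genes had at least 10 UMIs in each of these comparisons. The comparisons share libraries and are not independent of each other. Scaling by the median of ratios instead of the total moved the median of all genes from -0.12 to -0.03 between PND7 and the embryo.

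In stroma-like cells, which surround the follicles, class I mRNA followed another course and Ifitm1 was lowest in the embryo. H2-K1 stood at 4.93 CPM (2.26–9.36; 9 UMIs), 11.1 CPM (7.08–16.5; 24 UMIs) and 19.97 CPM (14.7–26.6; 47 UMIs). H2-D1 stood at 2.74 CPM (0.890–6.39; 5 UMIs), 13.4 CPM (8.95–19.2; 29 UMIs) and 53.1 CPM (44.2–63.3; 125 UMIs), so PND14 was its high library here. H2-D1 was 3.98-fold higher at PND14 than at PND7 (2.64–6.18), the interval in granulosa-like cells lying below 1 for the same ages. B2m stood at 140 CPM (124–159), 255.7 CPM (235–278) and 271 CPM (250–292), with overlapping intervals at the postnatal ages. Granulosa markers summed to 767, 854 and 676 CPM in stroma-like cells, with 15, 19 and 18 of 20 detected. These sums are 15.9%, 10.8% and 6.19% of the level in granulosa-like cells. The part of granulosa RNA in the stroma-like levels was not tested.

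The IFITM genes were all detected well in stroma-like cells. Ifitm1 stood at 191 CPM (171–212), 304 CPM (281–328) and 303 CPM (281–326), where granulosa-like cells had their highest level in the embryo. Ifitm2 stood at 805, 1177 and 913 CPM. Ifitm3 stood at 119 CPM (104–136), 165 CPM (149–183) and 311 CPM (288–334) and was 2.60-fold higher at PND14 than in the embryo (2.23–3.04). The Ifitm1 level depended on the grouping, since at the coarser cluster resolution its log2 ratio between PND14 and the embryo was 1.44 against 0.64, with 32 stroma-like cells at PND14. At PND14 the 29 cells of cluster 14 had 632 CPM (539–737) and the 183 cells of cluster 19 had 259 CPM (237–282).

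By the count, 0 of the 7 genes with enough UMIs (all but Psmb8) were 2-fold higher in stroma-like cells at PND7 than in the embryo (2.22% of 12590 genes), and 0 were 2-fold lower (1.86%). Between PND14 and the embryo H2-K1, H2-D1 and Ifitm3 were 2-fold higher (2.95% of 12729 genes) and none 2-fold lower (3.43%). H2-K1 was at the threshold, with a log2 ratio of 1.00 that became 1.82 with a pseudocount of 1, and Psmb8 lay just under it at 0.997. Between the postnatal ages H2-D1 alone was 2-fold higher (0.664% of 12647 genes) and none 2-fold lower (0.696%). The median log2 ratio over the genes was 0.65, 0.95 and 0.29 in these 3 comparisons, beside -0.03, -0.07 and -0.05 over all genes.

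**Figure D4:**
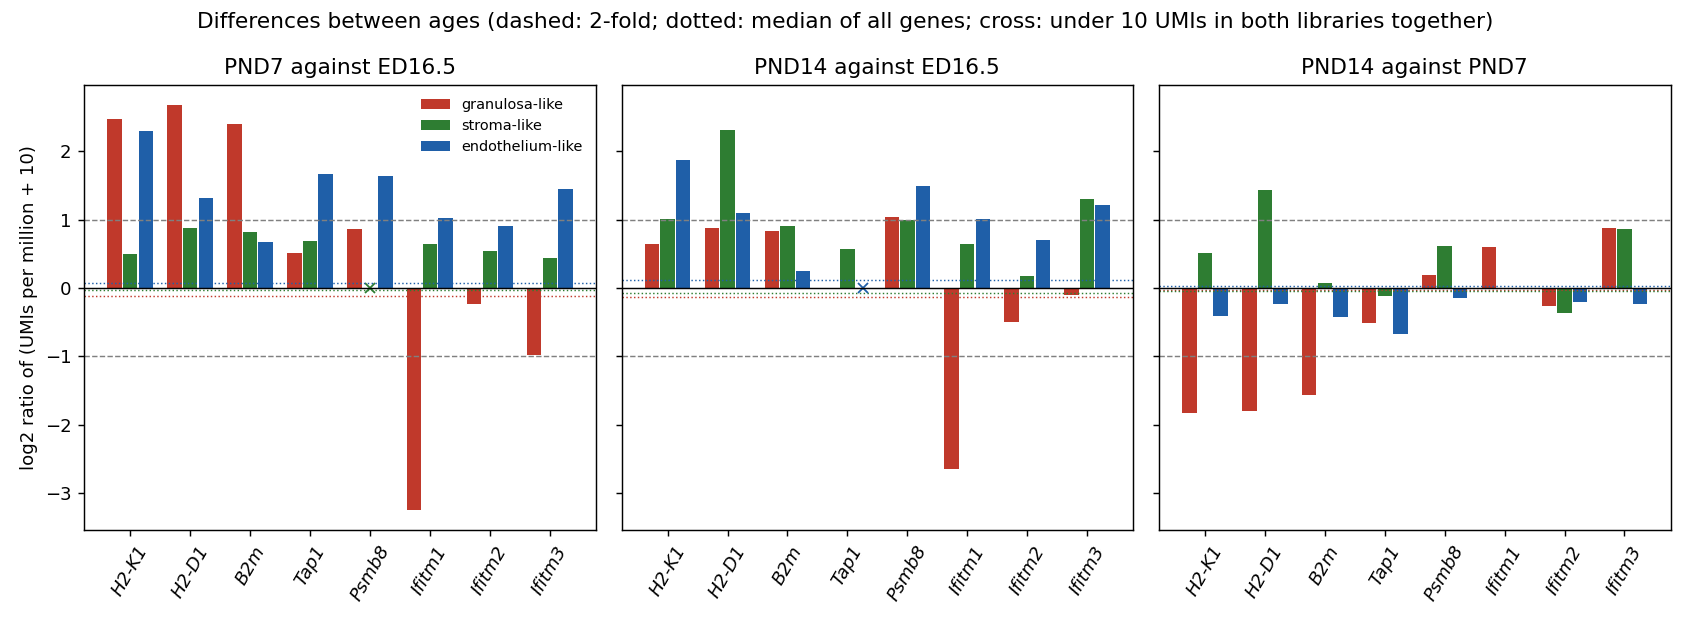
Log2 ratio of (CPM + 10) between ages (vertical axis) for the 8 genes (horizontal axis) in granulosa-like (red), stroma-like (green) and endothelium-like (blue) cells; dashed lines mark 2-fold, dotted lines the median of all genes, and crosses genes under 10 UMIs. H2-K1, H2-D1 and B2m of granulosa-like cells are above 2-fold at PND7 against the embryo and below it at PND14 against PND7, and Ifitm1 is lower after birth in granulosa-like cells only among these 3 classes.

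In endothelium-like cells, which line vessels, nearly all 8 genes were higher after birth. The same cluster, led by Ccl21a and Cldn5, held these cells at every age. Whether its make-up differed between ages was not tested. H2-K1 stood at 16.2 CPM (7.01–31.98; 8 UMIs), 119 CPM (90.5–153; 60 UMIs) and 86.5 CPM (66.2–111; 61 UMIs). H2-D1 stood at 116 CPM (87.6–150), 304 CPM (258–356) and 258 CPM (222–298). B2m differed less, at 465 CPM (406–529), 747 CPM (674–826) and 556 CPM (502–614). Tap1 had 0, 11 and 7 UMIs, where 0 allows up to 6.09 CPM, and Psmb8 stood at 12.2, 59.3 and 52.5 CPM. Ifitm3 was more abundant here than in any other class at the same age, at 339 CPM (289–394), 941 CPM (858–1029) and 800 CPM (735–869). This ranks whole classes. Within the embryonic immune-like class, the 7 cells of cluster 9 stood at 729 CPM (602–875) and the 26 of cluster 7 at 10.6 CPM (5.06–19.4). In endothelium-like cells Ifitm1 stood at 18.3, 47.4 and 46.8 CPM, from 9, 24 and 33 UMIs. In all, 6 of 8 genes were 2-fold higher at PND7 than in the embryo (4.90% of 8559 genes) and 5 of the 7 with enough UMIs at PND14 (7.73% of 9452 genes), with none 2-fold lower (1.79% in both). Between the postnatal ages none was 2-fold higher (3.24% of 9624 genes) or lower (0.998%). The medians were 1.38, 1.09 and -0.23, beside 0.07, 0.11 and 0.04 over all genes. Haemoglobin and other erythroid markers summed to 38221 CPM in the embryonic endothelium-like cells and to 496 and 3486 CPM after birth. Stroma markers summed to 367, 814 and 1603 CPM there, with 12, 13 and 13 of 13 detected, or 6.95%, 7.82% and 17.7% of the level in stroma-like cells. The part of erythroid and stroma RNA in these differences was not tested.

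Germ-cell-like cells had much heavy chain mRNA and, in the embryo, almost no light chain mRNA. In the 67 embryonic cells, whose clusters are led by the meiotic genes Stra8, Syce3 and Sycp1, H2-K1 stood at 397 CPM (360–437; 412 UMIs) and H2-D1 at 289 CPM (257–324; 300 UMIs). B2m stood at 28.0 CPM (18.7–40.1; 29 UMIs), the lowest of the 19 combinations of class and library, while H2-K1 was the highest of them. After thinning 71.6% of these cells held an H2-K1 UMI and 10.4% a B2m UMI (91.0% and 32.8% unthinned). Both germ cell clusters of the embryo showed this: cluster 1 had 305 CPM of H2-K1 and 25.7 CPM of B2m, and cluster 8 had 430 and 28.7 CPM. The 12 germ-cell-like cells of PND7 and the 3 of PND14, led by the oocyte gene Ooep, had 361 and 250 CPM of H2-K1, 66.6 and 83.2 CPM of H2-D1 and 181 and 153 CPM of B2m. Tap1 and Psmb8 were near 0 in the embryonic cells, with 2 and 1 UMIs. Ifitm1 was also lower in the later germ-cell-like cells, which are too few for a comparison. It stood at 171 CPM (146–198) in the embryo, 14.8 CPM (8.09–24.8) at PND7 and 30.6 CPM (12.3–63.1) at PND14. Of the 16 immune markers 11 were detected in the embryonic germ-cell-like cells, at a summed 44.3 CPM, with Ptprc and Csf1r at 0.

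Germ-cell-like cells had the highest balance of heavy to light chain mRNA among all classes. UMIs are taken near the 3′ end and were not scaled by length, so the ratio is compared between cells and not read as a ratio of molecules. Embryonic germ-cell-like cells had 24.6 UMIs of H2-K1 and H2-D1 per B2m UMI (16.9–36.9), and those of PND7 and PND14 had 2.37 (1.98–2.85) and 2.17 (1.44–3.34). Granulosa-like cells had 0.536 (0.405–0.705), 0.754 (0.684–0.832) and 0.569 (0.461–0.701) over all cells. In those without a germ cell UMI, a split made after seeing the data, the ratio was 0.241 in the embryo (0.138–0.401; 19 heavy chain UMIs), 0.736 at PND7 (0.643–0.842) and 0.536 at PND14 (0.422–0.677), the embryonic interval lying below the others. With such a UMI it was 0.851 (0.599–1.21), 0.776 and 0.727, with overlapping intervals. Granulosa markers in germ-cell-like cells summed to 251, 1648 and 2355 CPM at the 3 ages, with 12, 18 and 18 of 20 detected (Fshr at 0 in the embryo and at PND7), which is 5.21%, 20.8% and 21.6% of the level in granulosa-like cells; their part in the lower germ-cell-like ratio after birth was not tested. Stroma-like cells had 0.0547 (0.0295–0.0935), 0.0955 (0.0706–0.127) and 0.270 (0.227–0.320). Endothelium-like cells had 0.284, 0.566 and 0.620, and immune-like cells 0.626, 0.696 and 0.574. The composition of the heavy chains differed as well, with H2-K1 at 84.4% of heavy chain UMIs in germ-cell-like cells of PND7 (80.5–87.8), 57.9% in embryonic germ-cell-like cells (54.1–61.5) and 28.0% in endothelium-like cells of PND7 (22.1–34.6).

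**Figure D5:**
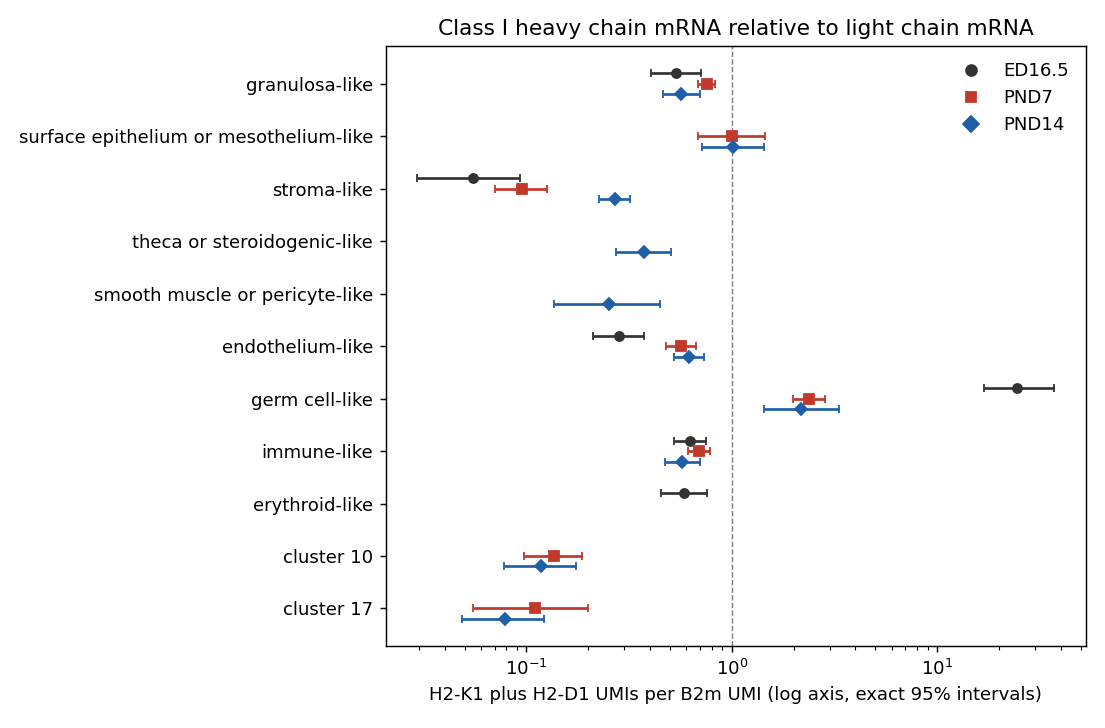
UMIs of H2-K1 plus H2-D1 per B2m UMI (log axis, horizontal) in each cell class (vertical axis) at embryonic day 16.5 (circles), PND7 (squares) and PND14 (diamonds), with exact 95% intervals. Germ-cell-like cells lie above 1, at 24.6 in the embryo, and granulosa-like cells between 0.536 and 0.754.

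Immune-like cells had the highest values of B2m, H2-D1, Tap1 and Psmb8 of these 5 classes after birth. The 9 immune-like cells of PND14 were too few for a comparison. At PND7 their intervals for Tap1 (13.7–49.1, 11 UMIs) and Psmb8 (60.8–121) overlapped those of endothelium-like cells (10.9–38.9 and 40.0–84.6). In the embryo they also had the highest values of Tap1 and Psmb8, but B2m was higher in endothelium-like and H2-D1 in germ-cell-like cells. The embryonic Tap1 interval of immune-like cells (1.99–11.8, 6 UMIs) overlapped that of granulosa-like cells (1.54–7.87). B2m stood at 288, 1577 and 2126 CPM, H2-D1 at 123, 801 and 882 CPM, H2-K1 at 57.0, 297 and 339 CPM, Tap1 at 5.43, 27.5 and 75.4 CPM and Psmb8 at 38.0, 87.4 and 181 CPM. At PND7, 7 of 8 genes (all but Ifitm1) were 2-fold higher than in the embryo, where 12.2% of 9581 genes were, and none was 2-fold lower (6.25%). The cells were of different kinds, however: cluster 7, led by Ccl5, Cma1 and Gzma, held 26 of the 33 embryonic cells, and cluster 9, led by S100a8, Lyz2 and complement C1q genes, held 16 of 19 at PND7, so age and cell kind cannot be told apart. All 13 stroma markers were detected in the immune-like cells of the embryo and PND7, at a summed 488 and 3260 CPM, or 9.23% and 31.3% of the level in stroma-like cells, and their part was not tested. In the unnamed clusters 10 (led by Pimreg) and 17 (led by Tmem100), which held cells of both postnatal ages, 0 of the 7 genes with enough UMIs were 2-fold higher at PND14 than at PND7 (0.520% of 11163 and 1.29% of 9596 genes) and 0 were 2-fold lower (1.43% and 1.42%).

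Ordered over the 19 combinations of class and library with at least 15 cells, H2-K1 ran from embryonic germ-cell-like cells (397 CPM) through immune-like (297 CPM), granulosa-like (182 CPM) and endothelium-like (119 CPM) cells of PND7 to embryonic stroma-like cells (4.93 CPM). The intervals of the first 3 and of their next neighbour are apart, and from endothelium-like cells of PND7 downwards most neighbours overlap. Ifitm1 ran from embryonic granulosa-like cells (659 CPM), apart from all others, through cluster 17 (311 CPM) and stroma-like cells of PND7 (304 CPM) to embryonic erythroid-like cells (13.2 CPM). Over these 19 points, which come from 3 libraries and share them and their classes, the correlation of log2(CPM + 10) was 0.87 between H2-K1 and H2-D1, 0.24 between H2-K1 and B2m and -0.27 between H2-K1 and Ifitm1. Among 7876 genes the patterns most like H2-K1 were Dazap2 (Pearson's r 0.87), H2-D1 (0.87), Dmxl1 (0.83), Fam49b (0.82) and Sirt7 (0.81). Those most like Ifitm1 were Zfp783 (0.89), Fam69b (0.89), Slc35f5 (0.87), Cdk14 (0.86) and Ebpl (0.86), and those most like Ifitm3 were Rcsd1 (0.93), Tgfbr2 (0.93), Selenop (0.91), Nrp2 (0.90) and Myh9 (0.90). These values describe likeness over 19 points only.

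Among the other genes of antigen presentation, only H2-Q4, H2-Q7 and H2-Q6, nonclassical class I genes, were 2-fold higher at PND7 than in the embryo in granulosa-like cells. Of 23 such genes 19 had enough UMIs between PND7 and the embryo, of which 3 were 2-fold higher and none was lower. Their median log2 ratio was 0.48, beside -0.12 over all genes, of which 3.22% were 2-fold higher and 5.00% lower. H2-Q4 had 10 and 71 UMIs (5.46 and 36.0 CPM), H2-Q7 4 and 51 (2.18 and 25.9 CPM) and H2-Q6 2 and 31 (1.09 and 15.7 CPM). These genes are close copies of one another. Of 303 windows at the 3′ end, 28 of H2-Q4, 16 of H2-Q6 and 0 of H2-Q7 occurred exactly in other genes, none of them an H2-Q gene; reads with mismatches or from elsewhere in the transcripts were not examined, and the split of reads between the copies is uncertain. At PND14 H2-Q7 had 4 UMIs (2.48 CPM) and H2-Q6 had 2 (1.24 CPM). These 2 of 19 genes were 2-fold lower than at PND7 (1.25% of all genes were), with none higher (1.14%). H2-Q4 had 33 UMIs (20.4 CPM; 14.1 to 28.7), between its other levels. Between PND14 and the embryo 1 of 15 was 2-fold higher (2.76% of all genes were) and none lower (5.99%). This was the chaperone Calr (calreticulin), at 296 CPM in the embryo and 611 CPM at PND14. Psmb9, another immunoproteasome subunit, stood at 2.73, 14.7 and 4.33 CPM from 5, 29 and 7 UMIs; its log2 ratio of (CPM + 10) between PND7 and the embryo was 0.96, just under 2-fold, where the ratio of the CPM was 5.39 (2.06–17.8). The peptide-loading factor Tapbp stood at 66.0, 54.3 and 49.5 CPM. The 3 constitutive proteasome subunits that immunoproteasome subunits replace, Psmb5, Psmb6 and Psmb7, were within 2-fold in each of the 3 comparisons.

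Of the interferon response genes with enough UMIs, 1 was past 2-fold on the log2(CPM + 10) scale in granulosa-like cells, a share near that of all genes. Of 40 interferon response genes 25 had enough UMIs between PND7 and the embryo in granulosa-like cells, and the other 15 had too few. Of the 25, 1 was 2-fold higher (3.22% of all genes were) and none was lower (5.00%), with a median of -0.19 beside -0.12. This was Bst2 (tetherin, which holds budding viruses at the membrane), at 220 CPM in the embryo, 503 CPM at PND7 and 282 CPM at PND14. The transcription factor Irf1 stood at 28.4, 24.8 and 22.3 CPM, and Isg15 at 6.55, 3.04 and 0.619 CPM. Between PND14 and the embryo 0 of 23 were 2-fold apart in either direction, where 2.76% of all genes were higher and 5.99% lower. Between the postnatal ages 0 of 20 were 2-fold apart, where 1.14% of all genes were higher and 1.25% lower. The scale used draws low genes together. Isg15, from 12, 6 and 1 UMIs, had a log2 ratio of -0.64 between PND14 and the embryo, where its CPM was 10.6-fold lower (1.56–452). Of 16 interferon ligand, receptor and signalling genes 10 had enough UMIs. The receptor subunits Ifnar1 (92.2, 38.0 and 39.6 CPM) and Il10rb (70.4, 26.9 and 22.9 CPM) were 2-fold lower at both postnatal ages than in the embryo. Of all genes 5.00% were 2-fold lower at PND7 and 5.99% at PND14. The kinase Jak1 (99.8, 211 and 188 CPM) was 2-fold higher at PND7, where 3.22% of all genes were.

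The lists gave other counts in other cells. In endothelium-like cells 8 of 23 interferon response genes were 2-fold higher at PND7 than in the embryo (4.90% of all genes) and 0 lower (1.79%). The median was 0.69 beside 0.07. Among the 8 were Ly6e at 174 and 858 CPM, Irf1 at 10.1 and 107 CPM and the GTPase gene Iigp1 at 4.06 and 55.3 CPM. Of 14 other antigen presentation genes 5 were 2-fold higher there, against the same 4.90%. In stroma-like cells 1 of 22 interferon response genes was 2-fold higher at PND7 than in the embryo (2.22% of all genes), again Bst2, at 18.6 CPM in the embryo, 160 CPM at PND7 and 357 CPM at PND14. The interferon-γ receptor subunit Ifngr1 was at 23.02, 85.2 and 107 CPM in these cells. Whether the lists differed between cell classes was not tested.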

How the data were processed

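Whole mouse ovaries were dissociated and captured with the 10x Genomics 3′ v2 chemistry, and all 3 libraries shared a sequencing lane, per the labels' protocols. The deposited values are UMI counts per gene and cell, made with Cell Ranger 2.1.1 on GRCm38 per the submitters' processing notes; the sources used here do not say how cells were called. In all, the tables hold 8743797 to 9065595 UMIs each, with a median of 11435 to 15090.5 per cell. Whether counting used strand is not stated there.

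A minimum of 200 genes per cell and a maximum of 20% mitochondrial UMIs left 1548 of 1554 cells. The counts were scaled to 10000 per cell and logged, 2000 variable genes, with the 8 genes and all lists described here left out, gave 30 principal components, and Leiden clustering at resolution 1.0 with 15 neighbours gave 21 clusters (Python 3.11.15, scanpy 1.11.5, scikit-learn 1.9.0, python-igraph 0.11.9, numpy 2.4.6, scipy 1.17.1; figures with matplotlib 3.10.9). Clusters were named by counting each class's markers that were 2-fold above the other cells; the class with the highest count gave the name if that count reached 3, or 4 where no marker was among the 10 leading genes. Clusters led by mitotic genes or by more markers of another class stayed unnamed. This rule was chosen after seeing the data and named 19 clusters, leaving 2 unnamed. Scrublet called 1, 3 and 3 doublets (0.219%, 0.589% and 0.515% of cells), which were kept. Such low shares leave doublets unassessed at all 3 ages.

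UMIs were summed per class and library. Levels have exact Poisson intervals, ratios exact conditional binomial ones and shares Clopper-Pearson ones, all at 95% and for counting error only. Counts of 2-fold differences used log2(CPM + 10), which understates changes of low genes, over genes with at least 10 UMIs in the pair. A count of 0 was read as up to 3 UMIs. The ratio code was tested on simulated counts. The members, the gene lists and the alternatives were chosen with earlier results of these data known. Genes of the lists were named where at least 2-fold apart in granulosa-like or stroma-like cells, or where abundant; the other genes of the lists that are named, among them Irf1, Isg15, Psmb9 and those in endothelium-like cells, were chosen after their values were seen. Promoter motifs were spelled out after the promoters had been seen.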

Additional observations from a re-analysis of the deposited data

Results flagged for a closer look

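In 7 cases the direction of a difference between ages was opposite in 2 of the granulosa-like, stroma-like and endothelium-like classes. A case needed a 2-fold difference in at least 1 class and ratio intervals on opposite sides of 1. H2-K1 and Ifitm1 were chosen for their age differences in granulosa cells, so nothing is read from the number of cases. With 1 library per age these differences between classes were not tested. Values are differences of log2 ratios of (CPM + 10), granulosa-like minus the other class.

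For PND14 against PND7, H2-K1 was lower in granulosa-like cells (-1.83) and higher in stroma-like cells (0.51), a difference of -2.34. H2-D1 did the same (-1.81 and 1.43), a difference of -3.24.

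For PND7 against the embryo, Ifitm1 was lower in granulosa-like cells (-3.25) and higher in stroma-like (0.65) and endothelium-like cells (1.02), differences of -3.89 and -4.27. For PND14 against the embryo its ratios were -2.65, 0.64 and 1.01, with differences of -3.29 and -3.66. Ifitm3 was lower in granulosa-like (-0.98) and higher in endothelium-like cells (1.45) at PND7 than in the embryo, a difference of -2.42.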

How the results depend on the processing

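No result among those recomputed changed sign where a call had been made, and 74 of 86 alternative values of the 6 leading log2 ratios stayed within their counting interval. No paired analysis was possible because each age has 1 library, and for the same reason no library could be left out. In granulosa-like cells, H2-K1 at PND7 against the embryo (2.47) was 2.84 with a pseudocount of 1, 3.47 with the gate per cell, 2.86 without the 3 cells with most UMIs and 2.97 without cells with a germ cell UMI; at PND14 against the embryo (0.64) the gate gave 1.499 and the germ cell filter 1.26. Ifitm1 at PND14 against the embryo (-2.65) was -2.92 with the gate and -3.06 with each library clustered alone. In stroma-like cells at PND14 against the embryo, H2-K1 (1.00) was 1.82 with a pseudocount of 1, and Ifitm1 (0.64) was 1.44 at resolution 0.5, 0.89 at resolution 2.0 and 0.42 when each library kept its largest cluster alone. The germ cell filter and the choice of main clusters were made after seeing the data.

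The count of the 8 genes 2-fold higher in granulosa-like cells at PND7 (3) was 5 with a pseudocount of 1. At PND14 against the embryo (1) it was 2 with a pseudocount of 1, with mitochondrial, ribosomal and haemoglobin genes left out of the total, with a mean over cells, with the gate and with the germ cell filter, 4 at 1.5-fold and 0 at 3-fold. In stroma-like cells (3) it was 5 with median-of-ratios scaling, with a pseudocount of 1 and at resolutions 0.5 and 2.0, 6 at 1.5-fold and 1 at 3-fold. Of the other antigen presentation genes in granulosa-like cells at PND14 (1) it was 3 with median-of-ratios scaling and with the reduced total, 4 with a pseudocount of 1, 2 at resolution 2.0, with the gate and with libraries clustered alone, 5 at 1.5-fold and 0 at 3-fold; of the interferon response genes (0) it was 2 with a pseudocount of 1, 1 after thinning and 2 at 1.5-fold. The causes were not tested. Resolution 0.5 named no embryonic granulosa-like cell, and the germ cell filter left 13 endothelium-like cells at PND7, so 28 results each had no value there. Among the other results, 88 of 962 alternative log2 ratios, 24 of 216 counts of the 8 genes and 104 of 564 counts over lists moved, as did 41 of 48 shares of cells, which a different thinning depth changes by construction.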

Other observations

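Embryonic germ-cell-like cells also held mRNA of a class II gene without its partners. H2-Ab1, a class II β chain, was at 126 CPM there (106–150; 131 UMIs) and at 9.27 CPM in embryonic granulosa-like cells, while its α chain partner H2-Aa and the class II chaperone Cd74 had 0 UMIs in the germ-cell-like cells. None of its 303 windows near the 3′ end occurred in another gene. After birth H2-Ab1 had 1 UMI in the 12 germ-cell-like cells of PND7.

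Ifitm6, another IFITM gene, was at 64.2 CPM (50.2–81.0) in the embryonic and 64.9 CPM (42.4–95.1) in the PND7 immune-like cells. In surface-epithelium-like cells, too few for a comparison (14 at PND7 and 12 at PND14), H2-K1 was at 98.6 and 140 CPM and Ifitm3 at 102 and 305 CPM. The 42 theca-like cells of PND14 had 49.9 CPM of H2-K1 and 16.6 CPM of H2-D1, with H2-K1 at 75% of heavy chain UMIs (62.1–85.3).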
